A study of Homo sapiens with 14 samples.

Results

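The 214 regions described here are the confident RBFOX2 edit clusters called from 100 pg of RNA. They are all rows of the deposited 100 pg list that was left after the 267 clusters of the RBFOX2 list had been compared with the Buffer-only list of the same input. All regions are from HEK293T cells, a human embryonic kidney line, fixed in methanol. RBFOX2 libraries came from wells that received a rabbit antibody to RBFOX2 and then APO1-Nb, a nanobody that binds the antibody and is fused to the cytidine deaminase APOBEC1. Enzyme-only libraries came from wells with APO1-Nb and no antibody, and Buffer-only libraries from wells with neither. At each input, 1 ng or 100 pg of total RNA, there were 3 RBFOX2, 1 Enzyme-only and 3 Buffer-only libraries, 14 in all. The sources give the replicates as slides in one place and wells in another, all of this line (also written HEK293XT), and the study calls them technical, so the p-values given here measure technical spread only. The Enzyme-only libraries have no replicate and enter no test.

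RBFOX2 is a splicing regulator whose RNA recognition motif binds UGCAUG, and it also occupies 3′UTRs. APOBEC1 converts cytosine to uracil in RNA, most readily where an A or a U precedes the cytosine. In this assay the antibody holds the enzyme near RBFOX2, and C-to-U changes are read as marks of the RNA close by. An edit site is a position called as C-to-U in a library, and an edit cluster is a stretch where such sites lie close together. The names of the regions below are gene symbols, followed by a number where a gene holds several clusters (CALM2-3 is the third of CALM2 in list order).

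The clusters were chosen on the 100 pg RBFOX2 and Buffer-only libraries. Every value of those 6 libraries inside the clusters is therefore a description without a test. The 1 ng libraries were not used by the rule. By the study's methods a low-input library was started from the total RNA of a sample and the input was scaled down, so libraries of both inputs may come from the same wells, and the 1 ng libraries may then share RNA with those that chose the clusters. The libraries held 18650 to 42589 sites each, with a median coverage of 19 to 23 reads per site. Of 7 genes used as markers of the HEK293 line, 5 held sites and 2, PAX2 and LHX1, held none. None of 8 genes of liver, blood, muscle and skin held a site in any library.

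UGCAUG elements of clusters that recurred on the 1 ng list are shown first, because they are the sequence that RBFOX2 is known to bind. Of the 17 such clusters with the element inside or within 50 nt of their ends, 8 of the 10 with the most edited reads at 1 ng are given. Each line is 30 nt of the hg38 reference on the strand of the gene, written as DNA, 5′ to 3′, with TGCATG in capitals. All except the last lie in 3′UTRs.
HPRT1: agtagagcttttTGCATGtatcttctaaga
PRDX3: cttaactgatcaTGCATGatccctcatccc
ZNF503: cacaaatttacaTGCATGtttgttacaaaa
CDH2: attcaggtttttTGCATGtttatatctttc
ZNG1E: tttaatctctagTGCATGaaagtctcatat
UBE2E2: tttattggtgggTGCATGctactgggaaca
PLS3-1: catgactgtgttTGCATGtttgatgggcag
ENSG00000290415-2: taggactataggTGCATGccaccacacctg

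These windows lie at chrX:134500170-134500199 (HPRT1, + strand), chr10:119167917-119167946 (PRDX3, − strand) and chr10:75398155-75398184 (ZNF503, − strand). The others lie at chr18:27951340-27951369 (CDH2, − strand), chr9:65681911-65681940 (ZNG1E, + strand), chr3:23590318-23590347 (UBE2E2, + strand), chrX:115649513-115649542 (PLS3-1, + strand) and, in an intron, chr22:15808903-15808932 (ENSG00000290415-2, − strand). The element lay inside the cluster in HPRT1, ZNF503, ZNG1E, UBE2E2 and PLS3-1. It lay 13 nt 5′ of the cluster in PRDX3, 10 nt 5′ in CDH2 and 28 nt 3′ in ENSG00000290415-2. The clusters of ZNG1E and ENSG00000290415-2 have exact copies elsewhere in hg38, so their place is uncertain.

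The same element also stood in or beside clusters that the 1 ng list did not hold, shown here for the 4 of these with the most edited reads at 1 ng after TRA2B-2. All are 3′UTR windows, at chr2:47160652-47160681 (CALM2-3, − strand), chr11:66003942-66003971 (BANF1, + strand), chr18:3278010-3278039 (MYL12B, + strand) and chr3:42784796-42784825 (HIGD1A, − strand).
CALM2-3: gtcaaaaaaataTGCATGtatagtaattag
BANF1: gattctcgctctTGCATGcctcccccgtcc
MYL12B: catagaacctgtTGCATGcaacttagtttc
HIGD1A: ctgtccaaaaagTGCATGgaatataacttg

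The positions that recurred most often were of 2 kinds, and their surroundings are shown because they differ in which libraries held them. The cytosine in capitals in the next 2 windows was called in all 6 RBFOX2 libraries and in no Enzyme-only or Buffer-only library.
HPRT1: ttatctgttttgtaCtttagaaatgtcagt
PLS3-1: caagatggtcatgaCtgtgtttgcatgttt
They lie at chrX:134500203-134500232 and chrX:115649504-115649533. An A precedes the edited cytosine in each. The cytosine in capitals in the following 3 windows was called in all 14 libraries, Buffer-only included.
ALYREF: ggttttttttttttCttttttttttttttt
RPL32P18: tactgtgccgagatCgctcacaatgtttcc
TRA2B-2: tgaaatgctgttttCattctgcatttgtgt
They lie at chr17:81887959-81887988 (− strand), chr7:44468179-44468208 (+ strand) and chr3:185917539-185917568 (− strand). A T precedes the called cytosine in each, and the one in ALYREF sits in a run of T.

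The 214 clusters lay in 184 genes, most of them in 3′UTRs of protein-coding genes. By Gencode 44, 149 clusters (69.6%) were in 3′UTRs, 24 (11.2%) in coding sequence, 24 (11.2%) in introns, 13 (6.07%) in noncoding exons and 4 (1.87%) in 5′UTRs. Of all 13567 clusters called in the 100 pg RBFOX2 replicate 3, 41.1% had their centre in a 3′UTR and 31.6% in an intron. The 1 ng confident list of 776 clusters held 76.4% in 3′UTRs, 6.06% in coding sequence and 9.54% in introns. Protein-coding genes held 186 of the clusters, long noncoding RNAs 15 and pseudogenes 13. In 3 clusters several genes share the same strand and region, and 10 lie opposite an exon of another gene. The library kit is not stated to keep the strand, so reads from such pairs cannot be told apart.

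Most genes held a single cluster (160 of 184), 19 held 2, 4 held 3 and DUXAP8, a pseudogene transcribed as a long noncoding RNA, held 4. The genes with 3 were CALM2, which encodes calmodulin, HNRNPK, an RNA-binding protein of the hnRNP family, MZT1, a component of the gamma-tubulin ring complex, and DUXAP9. The clusters of CALM2 and of MZT1 lay within 465 nt and 435 nt of 3′UTR, and those of HNRNPK within 2511 nt. APP, DEPDC1, DCUN1D4, PKM and OGT, which the study shows as RBFOX2 targets, held no cluster of the list. The study shows these genes mainly at its standard, larger input. For the lowest input it states that the APP site might drop out, though the individual replicates still held a cluster there.

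Of 12 gene lists, the one of RNA-binding and splicing proteins held 17 clusters in 12 of its 147 genes, all in 3′UTRs. They included HNRNPK, HNRNPDL, HNRNPF and HNRNPA1 (hnRNP proteins), SRSF3 and TRA2B (SR and SR-like splicing factors), SRPK1 (an SR protein kinase), SNRPD1 (a core protein of spliceosomal snRNPs), DDX21, BCLAF1 and SERBP1. Signalling adaptors and kinases held 12 clusters in 8 of 52 genes, also all in 3′UTRs, with CALM2, YWHAE (a 14-3-3 protein), PPP1CB (a catalytic subunit of protein phosphatase 1) and MAP2K1 (a MAP kinase kinase) among them. The list of long noncoding RNAs held 10 clusters in 4 of 30 genes, mostly DUXAP8, DUXAP9 and DUXAP10. Cytoskeleton and cell division held 8 clusters in 6 genes, and the other lists held 4 or fewer. No cluster lay in any of the 88 cytoplasmic ribosomal protein genes. For comparison, 184 genes held a cluster, while 16803 genes held a site in at least 1 library. Clusters are few beside that number of genes, so a list of this size may hold none. Whether any list held more or fewer clusters than other genes was not tested. Over the libraries of each group at 1 ng, the 17 clusters of RNA-binding and splicing proteins held 39 sites in RBFOX2, 3 in Enzyme-only and 6 in Buffer-only, and the 12 signalling clusters 49, 1 and 3, with 3, 1 and 3 libraries. In all 69 clusters belonged to a list and 145 to none.

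The spans of the list follow 1 replicate. Of the 214 rows, 212 had the same start and end as a cluster of the 100 pg RBFOX2 replicate 3, whereas 61 had those of replicate 1 and 66 those of replicate 2. The 2 others, DUXAP9-2 and PDIA6, are 15-nt pieces that remained of longer clusters, and neither held a site in any library. Depth, the fourth column of the list, also followed replicate 3: its ratio to the mean depth of the identical cluster in that library had a median of 1 (0.923 to 1.15), against 0.282 to 3.81 for replicate 1 and 0.382 to 3.00 for replicate 2. The spans were short, with a median of 45 nt (15 to 540 nt), and 132 were exactly 45 nt. The longest lay in C11orf58, with 540 nt of 3′UTR.

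Depth had a median of 247 reads per base (quartiles 99.1 and 498) and ran from 5.95 to 2129.9. All clusters of replicate 3 had a median depth of 60.1 reads per base. The deepest rows were an intron of LINC01643 (2129.9 reads per base), CALM2-1 (1833) and CALM2-2 (1829), and the shallowest an intron of PSMA8 (5.95), an intron of the pseudogene WASH5P (9.06) and an intron of NBPF9 (16.2). Listed depth is not the coverage of the called positions. In LINC01643, positions 34065986 and 34065990 had a coverage of 83 to 258 and 114 to 445 reads in the libraries that called them. By region, the median was 278 reads per base in 3′UTRs, 309 in coding sequence and 51.6 in introns. In the 184 clusters that a cluster of every 100 pg RBFOX2 library overlapped directly, the deepest library had a median of 1.55 times the depth of the shallowest, and 34 differed by more than 2-fold. The other 30 rows had no overlapping cluster in replicate 2, and 2 of these had none in replicate 1 either.

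The number of sites in the 100 pg libraries is the readout that chose the clusters. RBFOX2 libraries held 267, 215 and 365 sites inside them, the Enzyme-only library 65 and the Buffer-only libraries 40, 33 and 30. Replicate 3, whose own clusters give the spans, was the highest of the RBFOX2 libraries. At least 1 site lay in 185, 158 and 212 of the 214 clusters in the RBFOX2 libraries, in 55 in the Enzyme-only library and in 38, 29 and 26 in the Buffer-only libraries. Thus 150 clusters held a site in all 3 RBFOX2 libraries, 43 in 2, 19 in 1 and 2 in none. The edited reads inside them numbered 2029, 1672 and 3018 in RBFOX2, 582 in Enzyme-only and 493, 370 and 325 in Buffer-only. C11orf58, whose long span is that of the replicate 3 cluster, held 1, 1 and 18 sites in the RBFOX2 libraries.

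In the 1 ng libraries, which the rule did not use, the same clusters also held more sites in RBFOX2 than in Buffer-only wells. RBFOX2 libraries held 165, 153 and 160 sites inside them, the Enzyme-only library 73 and the Buffer-only libraries 48, 56 and 47. The means were 159 ± 6.03 and 50.3 ± 4.93 (SD, n = 3 each), a ratio of 3.17, and the groups did not overlap (exact two-sided permutation test, p = 0.1, the smallest that 3 against 3 allow). The excess was smaller when the larger number of sites in RBFOX2 libraries was taken into account. Per 10000 sites of the library the 1 ng values were 38.3 ± 2.51 in RBFOX2, 19.2 in Enzyme-only and 23.2 ± 1.95 in Buffer-only (SD, n = 3, 1 and 3). RBFOX2 stood at 1.65 times Buffer-only (exact permutation test, p = 0.1). Per 10000 edited reads of the library, 99.3 ± 2.74 fell inside the clusters in RBFOX2, 58.3 in Enzyme-only and 78.3 ± 9.35 in Buffer-only, a ratio of 1.27 between RBFOX2 and Buffer-only (exact permutation test, p = 0.1). There were 5 such comparisons over libraries, and Benjamini-Hochberg adjustment left each at 0.1.

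At least 1 site lay in 109, 108 and 109 of the 214 clusters in the RBFOX2 libraries at 1 ng. In the Enzyme-only library 64 did (29.9%, 95% Wilson interval 24.2 to 36.4%, counting error only) and in the Buffer-only libraries 45, 50 and 44. The RBFOX2 libraries lay above all others (109 ± 0.577 against 46.3 ± 3.21 in Buffer-only, SD, n = 3 each, exact permutation test, p = 0.1). Clusters called at 1 ng overlapped 116, 120 and 118 rows in RBFOX2, 73 in Enzyme-only and 49, 53 and 47 in Buffer-only (exact permutation test, p = 0.1, n = 3 each). The number of sites in every 1 ng RBFOX2 library exceeded that in every 1 ng Buffer-only library in 29 clusters, and was below it in 1, the pseudogene RPL21P93. Over all 13567 clusters of the 100 pg RBFOX2 replicate 3 this held for 0.73% and 0.0147%. Of the 212 listed clusters with the span of a replicate 3 cluster, a mean of 51.3% held a site in the 1 ng RBFOX2 libraries, 30.2% in Enzyme-only and 21.9% in Buffer-only. For the 13355 clusters of replicate 3 that are not on the list these shares were 7.38%, 4.83% and 2.62%. The listed clusters were also the deeper ones, with a median of 248 reads per base against 59.3. The part of depth in these shares was not tested. In bulk libraries of this kind fewer cells and less RNA per cell cannot be told apart.

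**Figure D1:**
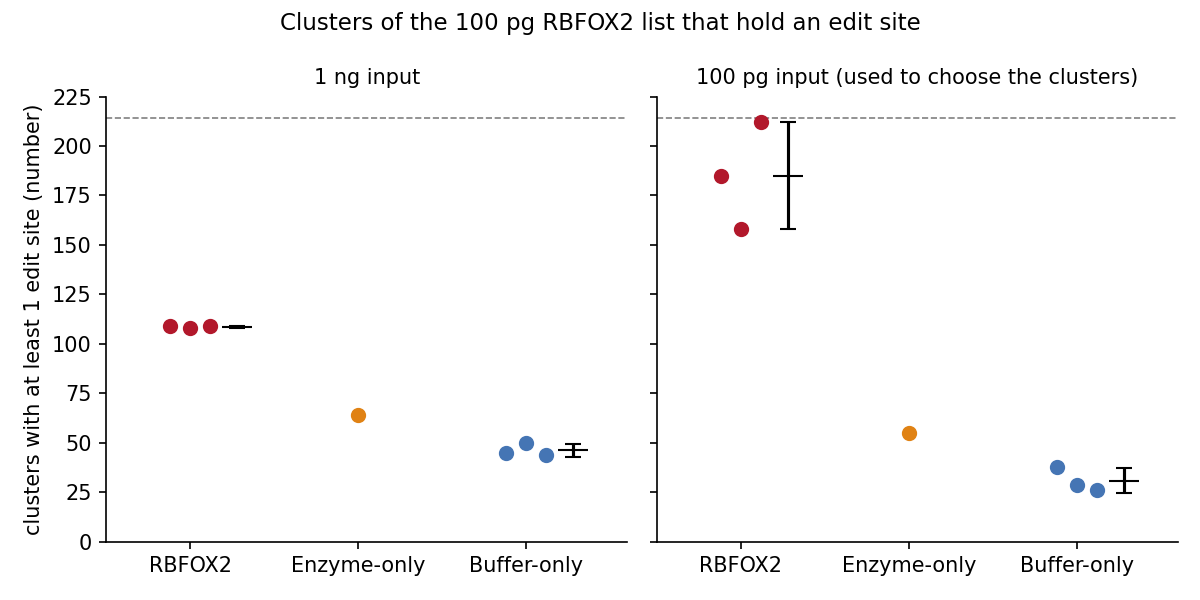
Number of the 214 clusters (vertical axis) that held at least 1 edit site in each library, at 1 ng (left) and 100 pg (right). Points are libraries, bars the mean and SD of 3 libraries, and the dashed line marks 214. At 1 ng the RBFOX2 points are at 108 and 109 clusters, the Enzyme-only point is at 64, and those of Buffer-only run from 44 to 50.

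Sites on the opposite strand of the clusters were few in every library. They numbered 4, 5 and 4 in RBFOX2, 6 in Enzyme-only and 4, 4 and 3 in Buffer-only at 1 ng, and per 10000 sites RBFOX2 was the lower (1.04 against 1.69 in Buffer-only, exact permutation test, p = 0.1, n = 3 each). The strand of a cluster is the one on which the list called it. The low numbers on the other strand therefore follow in part from the choice of the list.

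The Buffer-only libraries hold neither antibody nor enzyme, yet sites of theirs were left inside the list. At 100 pg 55 of the 214 clusters held a site in at least 1 Buffer-only library, and over both inputs 70 did. When those 55 were set aside, the other 159 clusters held 104 ± 6.56 sites at 1 ng in the RBFOX2 libraries, 25 in the Enzyme-only library and 8 ± 2.65 in the Buffer-only libraries (SD, n = 3, 1 and 3). In the 55 themselves the numbers were 55.3 ± 0.577 in RBFOX2, 48 in Enzyme-only and 42.3 ± 2.31 in Buffer-only. Per 10000 sites these 55 stood at 13.3 ± 0.391 in RBFOX2, 12.6 in Enzyme-only and 19.5 ± 0.998 in Buffer-only. Since Buffer-only sites divided the clusters and Buffer-only positions recur between libraries, the low Buffer-only number in the 159 and the high one in the 55 follow in part from the division, and no test was made. The 165 clusters with no exact copy of their sequence elsewhere in hg38 held 126 ± 3.46 sites at 1 ng in RBFOX2, 48 in Enzyme-only and 26 ± 3 in Buffer-only (SD, n = 3, 1 and 3, exact permutation test, p = 0.1). Both splits were made after the data had been seen.

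Overlap with the 1 ng list divides the clusters into 3 sets. The first are 52 clusters (24.3%) that overlap a row of the 1 ng list after its own Buffer-only removal. The second are 27 (12.6%) that overlap the 1 ng RBFOX2 list only before that removal, and all 27 overlap the 1 ng Buffer-only list. The third are 135 (63.1%) with no overlap, 7 of which touch the 1 ng Buffer-only list. The sets are defined by 1 ng calls, so the 1 ng values that follow describe them and test nothing.

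**Figure D2:**
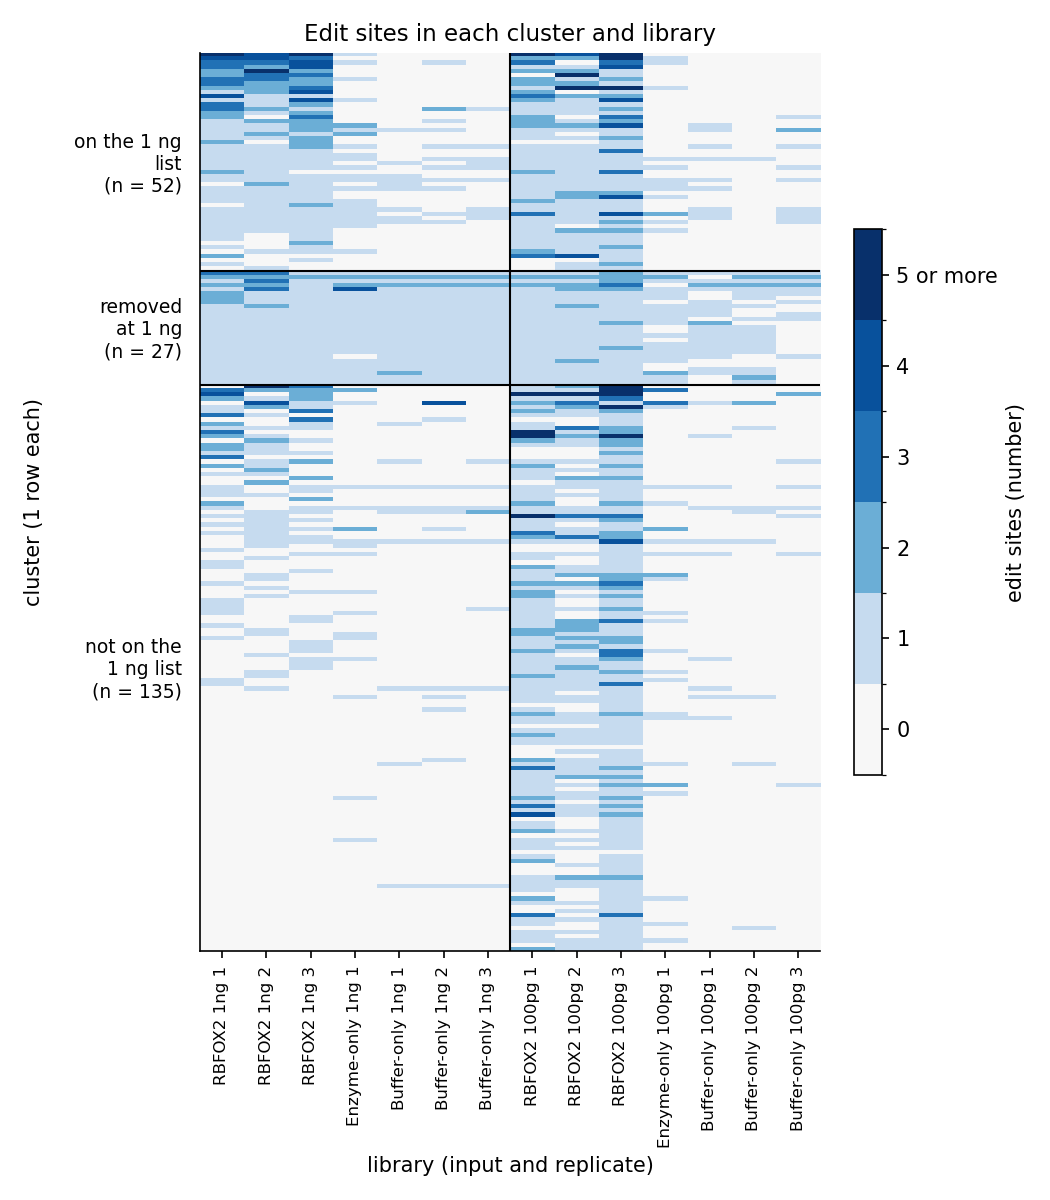
Edit sites in each of the 214 clusters (rows, in 3 sets of 52, 27 and 135) and 14 libraries (columns, 1 ng left of the line and 100 pg right of it). Colour is the number of sites from 0 to 5 or more. The 27 clusters removed at 1 ng are filled in RBFOX2 and Buffer-only columns alike, while 62 of the 135 in the lowest set are empty in all 1 ng RBFOX2 columns.

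The 52 clusters shared with the 1 ng list held 77, 67 and 86 sites in the RBFOX2 libraries at 1 ng, 24 in Enzyme-only and 9, 12 and 9 in Buffer-only. At 100 pg they held 71, 67 and 104 in RBFOX2, 13 in Enzyme-only and 9, 1 and 10 in Buffer-only. Of the 52, 38 had a site in every 1 ng RBFOX2 library and 42 in every 100 pg one. Their regions were 42 3′UTRs, 6 introns, 2 noncoding exons, 1 coding sequence and 1 5′UTR. Their median depth was 231 reads per base.

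HPRT1, a purine salvage enzyme, had the most sites of all clusters at 1 ng. Its 285-nt cluster in the 3′UTR (chrX:134500091-134500375) held 6, 4 and 6 sites in the RBFOX2 libraries at 1 ng, 1 in the Enzyme-only library and 0 in each Buffer-only library. At 100 pg it held 5, 4 and 9 in RBFOX2 and 0 in all 4 other libraries. RBFOX2 stood above the other wells at both inputs, and the position printed above, 134500217, was called in all 6 RBFOX2 libraries with 1.49 to 11.6% of 181 to 290 reads edited. PRDX3, a mitochondrial peroxidase, followed with 4, 4 and 3 sites in RBFOX2, 0 in Enzyme-only and 0 in each Buffer-only library at 1 ng, and 2, 2 and 7 in RBFOX2 against 1 in Enzyme-only and 0 in each Buffer-only library at 100 pg. UBE2E2, a ubiquitin-conjugating enzyme, held 3, 2 and 4 RBFOX2 sites at 1 ng and 1, 1 and 4 at 100 pg, with none in any Enzyme-only or Buffer-only library. Its listed depth, that of replicate 3, was 19.8 reads per base, while the clusters of the 5 other RBFOX2 libraries there had 64.7 to 98.1.

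ZNF503, a zinc finger protein, held 3, 3 and 4 in RBFOX2, 1 in Enzyme-only and 0, 1 and 0 in Buffer-only at 1 ng. CDH2, the N-cadherin gene, held 2, 1 and 2 in RBFOX2 and none elsewhere at 1 ng. FUBP3, an RNA-binding KH-domain protein, held 4, 1 and 1 in RBFOX2 and none elsewhere at 1 ng, and 3, 2 and 2 at 100 pg. In PLS3-1, of the actin-bundling protein plastin, each RBFOX2 library held 1 or 2 sites at either input and no other library held one. All of these clusters carry TGCATG inside or within 50 nt, and none but ZNF503 held a Buffer-only site.

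Clusters with no element inside or within 50 nt also recurred. YWHAE-1 held 2, 5 and 2 sites in RBFOX2 at 1 ng and 2, 2 and 1 at 100 pg, with none in any other library. The cluster has a listed depth of 1124 reads per base, but its positions 1344669 and 1344692, called in 3 and 4 libraries, had a coverage of only 5 to 16 and 9 to 14 reads. The 2 clusters of YWHAE lay within 135 nt of 3′UTR, and YWHAE-2 does carry the element within 50 nt. SDHD, a subunit of succinate dehydrogenase, held 3, 3 and 2 in RBFOX2, 1 in Enzyme-only and 0 in each Buffer-only library at 1 ng. DDIT4, a stress-induced inhibitor of mTOR signalling, held 3, 2 and 2 in RBFOX2 and none elsewhere at 1 ng. RAB11A-2, of a small GTPase of recycling endosomes, held 1, 2 and 4 in RBFOX2 and none elsewhere at 1 ng. DDIT4 was picked after its values had been seen. In YWHAE-1, SDHD, DDIT4 and RAB11A-2 the lowest 1 ng RBFOX2 library exceeded the highest Buffer-only one. Among all 52 clusters shared with the 1 ng list this held in 24, and the reverse in 0. The 52 were defined by 1 ng calls, so this separation follows in part from the choice of the set.

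In the 27 clusters removed at 1 ng, the 1 ng site numbers of RBFOX2 and Buffer-only libraries overlapped. These clusters held 34, 36 and 28 sites in RBFOX2, 31 in Enzyme-only and 30, 29 and 29 in Buffer-only at 1 ng. At 100 pg they held 29, 32 and 35 in RBFOX2, 22 in Enzyme-only and 21, 23 and 12 in Buffer-only. At 1 ng all 27 had a site in every Buffer-only library. At 100 pg 4 had a site in all 3 Buffer-only libraries, 16 in 2, 5 in 1 and 2 in none, and the same numbers hold for overlapping Buffer-only clusters. These 27 were shallow, with a median depth of 65.7 reads per base, and differed in kind from the others: 11 lay in introns, 8 in 3′UTRs, 6 in noncoding exons and 2 in coding sequence. Exact copies of their sequence stood elsewhere in hg38 for 15 of the 27 (55.6%), against 8 of 52 (15.4%) and 26 of 135 (19.3%) in the other sets. Reads that lie wholly within such a copy cannot be told apart from those of the listed place. The copies are of the cluster span only, and whether longer reads could be placed by their flanks was not measured. All 4 clusters of DUXAP8, both of DUXAP10 and both of ENSG00000291205 were among the 27.

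Of the 30 positions called in 12 or more of the 14 libraries, 26 lay in these clusters. In TRA2B-2, of an SR-like splicing factor, position 185917554 was called in all 14 libraries with a median of 46.0% of reads edited (22.5 to 58.7%, 129 to 214 reads). The cluster held 3, 3 and 1 sites in RBFOX2, 1 in Enzyme-only and 1, 1 and 1 in Buffer-only at 1 ng. In RPL32P18, a pseudogene of a ribosomal protein, position 44468193 had a median of 63.1% (40 to 79.2%), and in ALYREF, an mRNA export factor, position 81887974 a median of 13.9% (2.44 to 27.8%). In the METTL2A 3′UTR, which held 2 sites in every 1 ng library, both positions were called in 13 of the 14 libraries, from 6 to 28 reads each.

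The 135 clusters not on the 1 ng list held 54, 50 and 46 sites in RBFOX2, 18 in Enzyme-only and 9, 15 and 9 in Buffer-only at 1 ng. At 100 pg they held 167, 116 and 226 in RBFOX2, 30 in Enzyme-only and 10, 9 and 8 in Buffer-only. They were the deepest set (median 302 reads per base), with 99 in 3′UTRs and 21 of the 24 clusters in coding sequence. Of the 135, 73 held at least 1 site in a 1 ng RBFOX2 library, 5 of them in all 3 libraries, and 62 held none. Those 62 held 170 sites in the 100 pg RBFOX2 libraries, had a median depth of 305.5 reads per base and included 8 with a Buffer-only site. At the depth of these files an edit too rare to be called at 1 ng cannot be told from its absence.

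CALM2-3 was the cluster of this set with the most sites at 100 pg: 5, 9 and 9 in RBFOX2, 0 in Enzyme-only and 0, 0 and 2 in Buffer-only. At 1 ng it held 4, 0 and 2 in RBFOX2 and none in any other library, so 1 RBFOX2 library had no site in this 3′UTR cluster. Its listed depth, 1743 reads per base, followed a 100 pg library and is not that of the 1 ng library without a site. C11orf58 held 3, 2 and 2 in RBFOX2, 2 in Enzyme-only and 0 in each Buffer-only library at 1 ng. HIGD1A, a hypoxia-induced mitochondrial protein, held 1, 2 and 1 in RBFOX2 and none elsewhere at 1 ng, and 1, 2 and 6 in RBFOX2, 1 in Enzyme-only and 0 in each Buffer-only library at 100 pg. MYL12B, a regulatory light chain of myosin, held 1, 0 and 3 in RBFOX2 and none elsewhere at 1 ng. BANF1, which bridges chromatin and the nuclear envelope, held 1 site in each 1 ng RBFOX2 library and none elsewhere at that input, and 1, 3 and 2 in RBFOX2, 0 in Enzyme-only and 0, 1 and 0 in Buffer-only at 100 pg. In BANF1, HIGD1A and C11orf58 the lowest 1 ng RBFOX2 library exceeded the highest Buffer-only one, and in CALM2-3 and MYL12B 1 RBFOX2 library held no site. Among all 135 clusters of this set every 1 ng RBFOX2 library exceeded every Buffer-only one in 5, and the reverse held in 1. CALM2-3, BANF1, MYL12B and HIGD1A were picked by their edited reads in the 1 ng RBFOX2 libraries, so their 1 ng values test nothing.

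Other clusters of this set held several sites at 100 pg and few or none at 1 ng. The 2 clusters of ID4, an inhibitor of DNA binding, held 9 sites over the 100 pg RBFOX2 libraries and 0 over the 1 ng ones. IPO5, an importin of nuclear transport, held 4, 1 and 2 at 100 pg and 0 in every 1 ng library. NUCKS1, a chromatin-associated protein, held 8, 3 and 3 in RBFOX2, 0 in Enzyme-only and 0, 0 and 1 in Buffer-only at 100 pg, and 1, 1 and 0 in RBFOX2 with none elsewhere at 1 ng. SF3B6, a subunit of the spliceosomal SF3b complex, carried TGCATG inside a coding-sequence cluster with a listed depth of 1327 reads per base. It held 3, 0 and 3 sites at 100 pg and none at 1 ng. ID4 and SF3B6 were chosen after their values were seen.

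**Figure D3:**
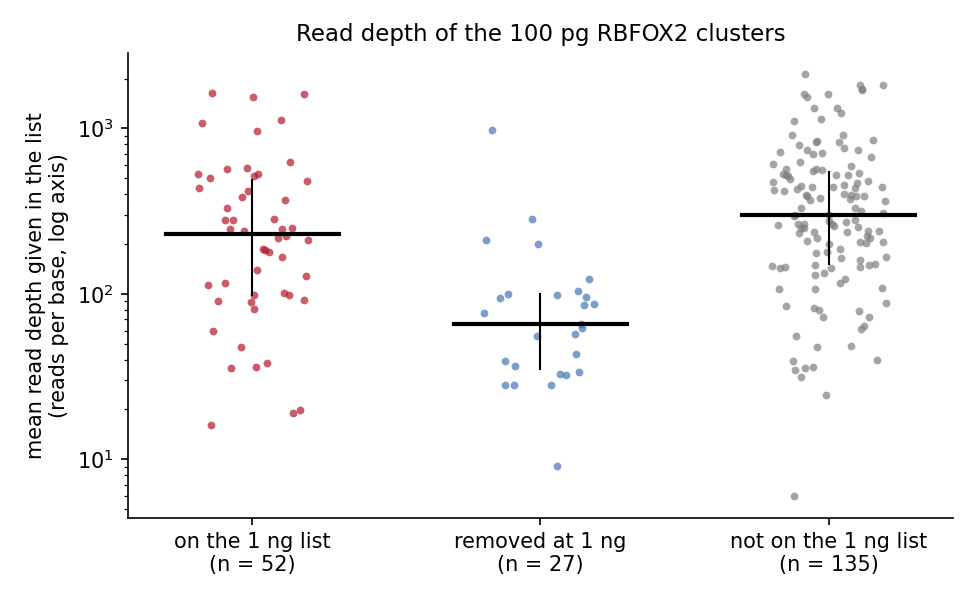
Mean depth in reads per base (vertical axis, log scale) of each cluster as the list gives it, for the 3 sets of 52, 27 and 135 clusters. Points are clusters, thick lines medians and thin lines the quartiles. The medians are 231, 65.7 and 302 reads per base.

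Enzyme-only libraries, with the deaminase and no antibody, reached 86 of the 214 clusters over both inputs. Those with the most Enzyme-only sites were C11orf58, RPL32P18, METTL2A, PSMA8 and SLBP-2. C11orf58 held 2 at 1 ng and 3 at 100 pg, against 0 in all 6 Buffer-only libraries. The last 4 also held Buffer-only sites. SLBP-2, in an intron of the histone stem-loop binding protein gene, has 1571 exact copies elsewhere in hg38 and is uncertain. Of the 144 clusters with no Buffer-only site in any of 6 libraries, 34 held an Enzyme-only site, 90 a site in at least 1 RBFOX2 library at 1 ng and 26 in all 3. In all, 110 clusters held no site outside the RBFOX2 libraries, DUXAP9-2 and PDIA6 with no site at all among them.

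Position by position, the 100 pg replicates rarely hit the same cytosine. The clusters held 770 different called positions over the 14 libraries, of which 607 were called in a 100 pg RBFOX2 library: 436 in 1 of the 3 libraries, 102 in 2 and 69 in all 3. Of these 69, 48 were also called in a Buffer-only library and 21 were not. In the 52 shared clusters 18 positions were called in all 3, 11 of them also in Buffer-only. In the 27 clusters removed at 1 ng all 29 such positions were called in Buffer-only, and in the 135 others 8 of 22. RBFOX2 libraries of both inputs shared 203 positions. Those that no Buffer-only library called numbered 86 in the 52 shared clusters, 2 in the 27 and 63 in the 135. Of the 42 positions called in all 6 RBFOX2 libraries, 3 were absent from Buffer-only, those of HPRT1 and PLS3-1 printed above among them.

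The share of edited reads and the base before the cytosine are given by how many Buffer-only libraries called a position, with no test. A larger edited share is more easily called, so differences in edited share between these groups may follow in part from the grouping. The 684 positions in no Buffer-only library had a median of 3.02% of reads edited (quartiles 1.82 and 5.48%), and an A or T preceded 89.0% of them. The 37 positions in 4 or more Buffer-only libraries had a median of 23.5%, and an A or T preceded 51.4%. The 33 positions in a single Buffer-only library had a median of 2.59%, and an A or T preceded 57.6%. For the 7 positions in 2 Buffer-only libraries these values were 14.3% and 85.7%, and for the 9 in 3 they were 15.8% and 22.2%, so the share of A or T did not follow the number of libraries step by step. At 1 ng an A or T preceded 84.8, 79.1 and 81.3% of the sites inside the clusters in RBFOX2, 63.0% in Enzyme-only and 47.9, 50 and 51.1% in Buffer-only. Over all sites of the same libraries these shares were 71.7, 72.2 and 72.1% in RBFOX2, 68.5% in Enzyme-only and 51.2, 51.5 and 51.8% in Buffer-only. At 1 ng the share inside the clusters stood above that of the whole library in each RBFOX2 library and in no other. At 100 pg it did so in all 3 RBFOX2 libraries, in Enzyme-only (72.3% inside the clusters and 57.9% over all sites) and in 2 of the 3 Buffer-only libraries.

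**Figure D4:**
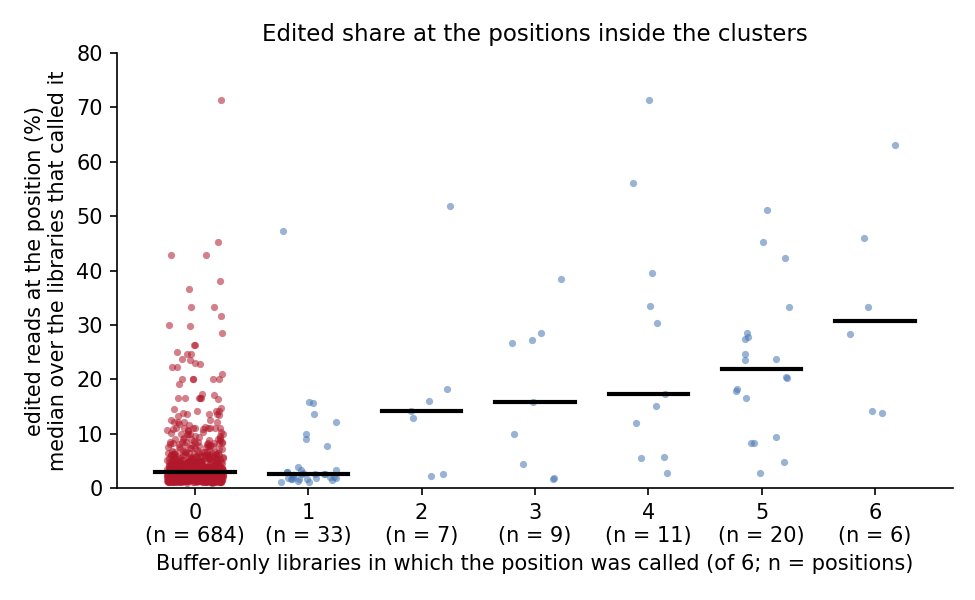
Share of edited reads (vertical axis, percent, median over the libraries that called the position) at each of the 770 positions, by the number of the 6 Buffer-only libraries that called it (horizontal axis). Points are positions and black lines medians. The median is 3.02% for positions in no Buffer-only library and 30.8% for the 6 positions in all 6.

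UGCAUG was most frequent in the clusters shared with the 1 ng list. TGCATG was searched on the strand of the gene only. It lay inside 16 clusters and inside or within 50 nt of the ends of 33, of which 17 were among the 52 shared clusters, 1 (TRA2B-2) among the 27 and 15 among the 135. To compare regions of unequal length, windows of 50 nt to each side of the centre were used. The element lay in 19 of 214 windows (8.88%, 95% Wilson interval 5.76 to 13.4%), namely in 10 of 52 (19.2%, 10.8 to 31.9%), 0 of 27 (up to 12.5%) and 9 of 135 (6.67%, 3.55 to 12.2%) windows of the 3 sets. Of all clusters of the 100 pg libraries, 4.0, 3.98 and 3.83% held it in RBFOX2, 2.73% in Enzyme-only and 2.46, 2.59 and 2.41% in Buffer-only. In the 1 ng confident list it was 15.5% (13.1 to 18.2%) of 776. The intervals of the whole list and of the RBFOX2 libraries did not overlap, while that of the 135 reached the library values. In the 100 pg Buffer-only confident list of 102 clusters the element lay in 5.88% (2.72 to 12.2%) of windows. That interval overlapped the one of the whole list. These intervals cover counting error only, and no test was made. The windows were also not matched by region. In 3′UTRs lay 80.8% of the 52, 29.6% of the 27 and 73.3% of the 135 clusters, against 41.1% of all clusters of the 100 pg RBFOX2 replicate 3. The part of region in the shares of the element was not tested. GCACG, a weaker RBFOX site, lay in 5 windows (2.34%), against 2.59, 2.68 and 2.66% of all clusters of the 100 pg RBFOX2 libraries.

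**Figure D5:**
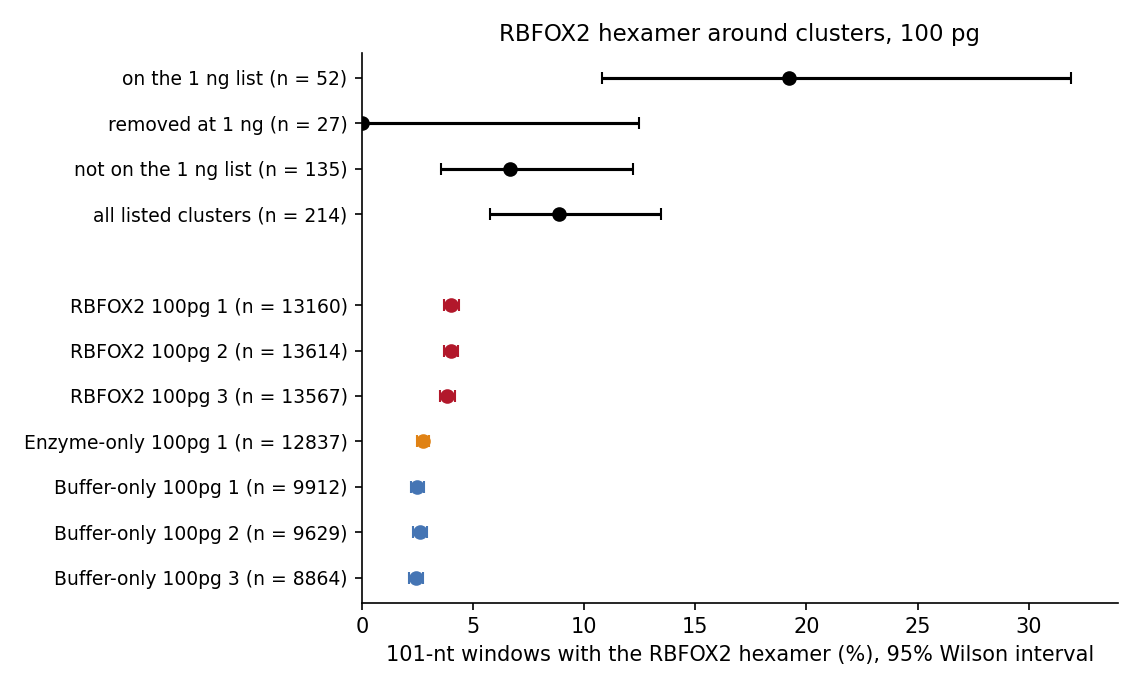
Share of windows, 50 nt to each side of the cluster centre, that hold the RBFOX2 hexamer on the strand of the gene (horizontal axis, percent), for the 3 sets, all 214 listed clusters and all clusters of each 100 pg library. Bars are 95% Wilson intervals. The 52 shared clusters stand at 19.2%, the whole list at 8.88% and the 3 RBFOX2 libraries between 3.83 and 4.0%.

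In the 33 clusters with the element within 50 nt, 204 positions were called in an RBFOX2 library. Of these, 88 lay 5′ and 116 lay 3′ of the centre of the nearest element, 49 within 20 nt and 127 within 50 nt, with a median distance of 42 nt. Counting bases from 1 at the 5′ end of the printed windows, the cytosine at base 6 of PLS3-1 was called in 6 RBFOX2 libraries and that at base 26 of ZNF503 in 4, neither of them in an Enzyme-only or Buffer-only library. Base 22 of the MYL12B window was called in 4 RBFOX2 libraries and in no other. Of the 33 clusters, 25 held no Buffer-only site, and 10 of those had a site in every 1 ng RBFOX2 library.

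Whole genes with a cluster seldom passed a test on sites per gene at 1 ng. Of the 184 genes, 125 had enough sites to be tested among 2704 genes. The fold changes are relative to the sites that each library holds in tested genes. By edgeR, MZT1, FUBP3 and SERBP1 were called higher in RBFOX2 than in Buffer-only at an adjusted p of 0.05, and ENSG00000291205 was called lower. That is 3 of 125 genes (2.4%), against 0.777% of all genes tested, and 1 lower (0.8%), against 0.222% of all genes. The median log2 fold change was 0.76 for these 125 genes and 0.27 for all. MZT1 had 15, 18 and 18 sites in RBFOX2, 6 in Enzyme-only and 0, 1 and 1 in Buffer-only (log2 fold change 3.16, SE 0.67, edgeR adjusted p = 0.033). FUBP3 had 14, 11 and 15 in RBFOX2, 6 in Enzyme-only and 0, 0 and 1 in Buffer-only (log2 fold change 3.68, SE 0.86, edgeR adjusted p = 0.0405). SERBP1, an mRNA-binding protein, had 21, 24 and 24 in RBFOX2, 10 in Enzyme-only and 1, 3 and 3 in Buffer-only (log2 fold change 1.88, SE 0.46, edgeR adjusted p = 0.0435), but none of its 1 ng sites lay inside its listed cluster. ENSG00000291205 had 6, 7 and 6 sites in RBFOX2, 5 in Enzyme-only and 8, 8 and 9 in Buffer-only (log2 fold change −1.76, SE 0.43, edgeR adjusted p = 0.0425), and its clusters have copies elsewhere. PRDX3 missed the threshold, with 7, 10 and 9 sites in RBFOX2 and 0 in every other 1 ng library (edgeR adjusted p = 0.0614).

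The calls did not hold under every setting. DESeq2 called none of the 125 genes, while edgeR at an unadjusted p under 0.05 gave 36 higher (28.8%) and 12 lower (9.6%), against 12.3% and 3.74% of all 2704 genes. With each of the 6 libraries left out in turn, 0 to 2 genes were called higher and 0 or 1 lower, and none was called when any of the 3 Buffer-only libraries was left out. TMM scaling set the median of all genes at 0.27 on the log2 scale, against 0.01 without scaling, where 2 of the 125 genes were called higher and 6 lower, against 19 and 18 of all 2704. Among the lists, 1 of 11 tested genes of RNA-binding and splicing proteins was called higher (SERBP1) and 1 of 5 of cytoskeleton and cell division (MZT1). No tested gene of the other lists was called in either direction.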

How the data were processed

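RNA of methanol-fixed HEK293T cells (INSCRIBE, in situ RNA editing with APO1-Nb) was sequenced from 14 libraries of 1 ng or 100 pg. Per the submitters' processing notes and the study's methods, reads were trimmed with cutadapt, aligned to hg38 with STAR (2.4.0), and edit sites were called with SAILOR. The deposited site score, which the authors required to be above 0.5, is a confidence of the C-to-U call, and the edit fraction, edited reads over coverage, was kept by the authors below 0.8. The deposited site tables give the edited and total read counts of each site, and the lowest coverage found in them was 5 reads. The authors called edit clusters with FLARE (false discovery rate 0.1, sites merged within 15 nt), and the deposited cluster tables give the mean coverage depth and edit fraction of each cluster. The deposited p-values of clusters were not used. By the study's methods the authors kept clusters found across replicates and then removed those of the Buffer-only list, though 30 of the remaining rows have no directly overlapping cluster in replicate 2. The fourth column of that list, a depth, is a deposited signal that followed replicate 3.

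Sites and clusters were counted inside each row on its own strand. Genes, regions and strands came from Gencode 44, which need not be the annotation the authors used. TGCATG and GCACG were searched in hg38 on the strand of the gene. The clusters and the gene lists were chosen with earlier results of these data known.

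Libraries were grouped by their labels. RBFOX2 and Buffer-only libraries of 1 ng were compared by an exact two-sided permutation test of the means (SciPy 1.17.1). Sites per gene were tested with the quasi-likelihood test of edgeR (4.0.16) with TMM scaling and Benjamini-Hochberg adjustment at 0.05, for genes with 3 sites in at least 3 of the 6 libraries and 5 over all of them. Alternatives were other spans, coverage minimums of 10 and 20 reads, the opposite strand, left-out libraries, the replicate block, no TMM scaling, the default filter of edgeR and DESeq2 (1.42.0). Intervals are 95% Wilson intervals and cover counting error only. Columns of per-sample values without a sample numbered 0.

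The genes and clusters named follow a rule: genes with several clusters, clusters with TGCATG within 50 nt by edited reads at 1 ng (up to 10 on the 1 ng list and 5 off it), the 3 deepest and 3 shallowest, up to 5 each with the most Enzyme-only and Buffer-only sites, up to 8 with a position called in the most RBFOX2 libraries, genes shown by the study, genes called by edgeR, and up to 4 per gene list by depth. DDIT4, ID4, SF3B6, RPL21P93 and the further members of the gene lists were named after their values had been seen. Some items that the rule names are not reported here.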

Additional observations from a re-analysis of the deposited data

How the results depend on the processing

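The 5 comparisons of RBFOX2 with Buffer-only libraries at 1 ng were recomputed under 56 alternatives, and 55 kept the direction, with exact permutation p of 0.1 to 0.6. The exception was the opposite strand, where the difference per 10000 sites was −0.655. The 55 include the opposite-strand count, 4.33 in RBFOX2 against 3.67 in Buffer-only (exact permutation test, p = 0.6), which is a control. They also include clusters without Buffer-only sites at 100 pg, where the direction follows in part from that choice. All alternatives use the same libraries, so they are not independent of each other. Leaving out each library in turn gave differences of 106 to 112 sites, 13.7 to 16.2 per 10000 sites, 61.2 to 64.2 clusters with a site, 67 to 70 with a called cluster and 15.6 to 23.8 per 10000 edited reads. The sets without Buffer-only sites at 100 pg, without exact copies, with the 1 ng list before removal, and with the fixed window around the centre were chosen after seeing the data. Overlap with the 1 ng list, 52 in the report, was 79 with that list before removal. TGCATG, in 33 clusters within 50 nt, lay inside 16, within 200 nt of 60 and within the fixed window of 19. Of the genes tested at 1 ng, 3 of 125 were called higher and 1 lower (21 and 6 of all 2704). Without TMM scaling 2 and 6 were (19 and 18 of all 2704), with the default filter of edgeR 4 and 5 of 21 (14 and 13 of all 100), and with DESeq2 0 and 0 (0 of all 2704). Leaving out each library gave 0 to 2 higher and 0 to 1 lower. The causes of these shifts were not tested. With the replicate number as a block 9 were called higher and 5 lower (52 and 11 of all 2704), and the paired permutation p of the 5 comparisons was 0.25, the smallest that 3 pairs allow. Whether the replicate numbers pair the samples is not stated. Deviations of same-numbered RBFOX2 and Buffer-only libraries correlated at −0.0223, −0.0017 and −0.0298 over 2704 genes. With so few sites per gene, these correlations cannot decide it. The coverage of a position, which can be well below the listed depth of its cluster, limits how rare an edit could be called. Each Enzyme-only value rests on 1 library.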
